A study of Arabidopsis thaliana with 8 samples.

Results

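The response of gpa1-2 roots to ATP was taken from 2 expression profiles, one of untreated roots and one of roots held on ATP for 60 min. gpa1-2 is a null mutant of GPA1, the canonical Gα subunit of the Arabidopsis thaliana heterotrimeric G protein, in the Wassilewskija (WS) background. Genes were kept where FPKM (fragments scaled to transcript length and to the profile's total) reached 1 in either profile and the scaled counts of both profiles summed to 12 or more, which held for 18766 of the 33544 genes listed. The other 14778 genes were left out, 9748 of them because they were at 0 in both profiles and 1099 because their counts were too few at an FPKM of 1 or more in either profile. The response of a gene is log2(FPKM + 1) after ATP minus log2(FPKM + 1) before, so 1 added to FPKM pulls the response of genes with low levels towards 0.

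Plant cells release ATP when they are wounded or grow, and ATP outside the cell acts as a signal. In Arabidopsis it is bound by the lectin receptor kinase DORN1 (LecRK-I.9), is cleaved by apyrases, and is followed by Ca2+ influx, reactive oxygen and changes in transcription that overlap with wound and jasmonate responses. A heterotrimeric G protein has an α subunit that binds GTP and a βγ pair, and besides GPA1 the plant has XLG proteins, which are large relatives of the Gα subunit.

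The study compared WS and gpa1-2 seedlings before and after 60 min on ATP, and its labels give 8 root samples in 4 groups of 2 biological replicates, all from seedlings on 1/2 MS medium, 4 days old by the labels though older in the study's methods. The treated seedlings were moved to 1/2 MS medium containing ATP, at a concentration the labels do not give, whereas the untreated ones were sampled before the move, so ATP, transfer and the time elapsed cannot be told apart. All gpa1-2 samples carry the same allele in WS, no complemented line is among the 8 samples, and WS carries the functional gene. The study's methods took the root tip, and the labels say roots. Only 1 value per gene and condition was used here, made from both replicates, so no spread between replicates could be computed, no test was run and every difference below describes these profiles. Intervals in brackets after a fold are exact 95% (Clopper-Pearson) intervals, taken from the scaled counts, and cover counting error only.

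Whole reads recovered from the scaled counts numbered 11769870 before and 13483730 after ATP in gpa1-2, against 11780798 and 12212944 in WS. The 10 genes with the most counts held 4.81% and 4.01% of the gpa1-2 counts. GPA1 itself was at 28.6 FPKM untreated and 31.1 FPKM after ATP in gpa1-2 (596 and 699 reads), and at 51.9 and 46.5 FPKM in WS. Its level was therefore lower in the mutant in both conditions but far from 0, and where in the gene the reads lay was not known here. Of 15947 genes with 100 or more scaled counts over the 4 profiles, 2 had both gpa1-2 values apart from both WS values by 2 or more on the log2 scale, and SADHU3-1, a retroelement chosen after its values were seen, stood at 0.225 and 0.104 FPKM in gpa1-2 against 50.1 and 53.7 FPKM in WS. One gene, MAPR2, grouped the profiles across genotype and treatment. Root markers were present: 16 of 17 root identity genes were kept, with PIN2 from 36.3 to 64.95 FPKM and SHR from 17.1 to 22.3 FPKM, while none of 8 seed, pollen and flower markers were kept.

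Most of the gpa1-2 root transcriptome was near its starting level after 60 min on ATP. The median response of the 18766 kept genes was 0.03, with quartiles of -0.24 and 0.29, and 75.8% of genes moved by less than 0.5 in either direction. A gene is called raised at a response of 1 or more and lowered at -1 or less. By that rule 526 genes were raised (2.8% of kept genes) and 568 were lowered (3.03%), and 61 and 54 of them passed 2 and -2. The most extreme responses were 4.67 and -3.52. There was no gap at the threshold: 110 genes lay between 1 and 1.1 and 125 between 0.9 and 1, and on the lower side 110 lay between -1.1 and -1 and 157 between -1 and -0.9.

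**Figure D1:**
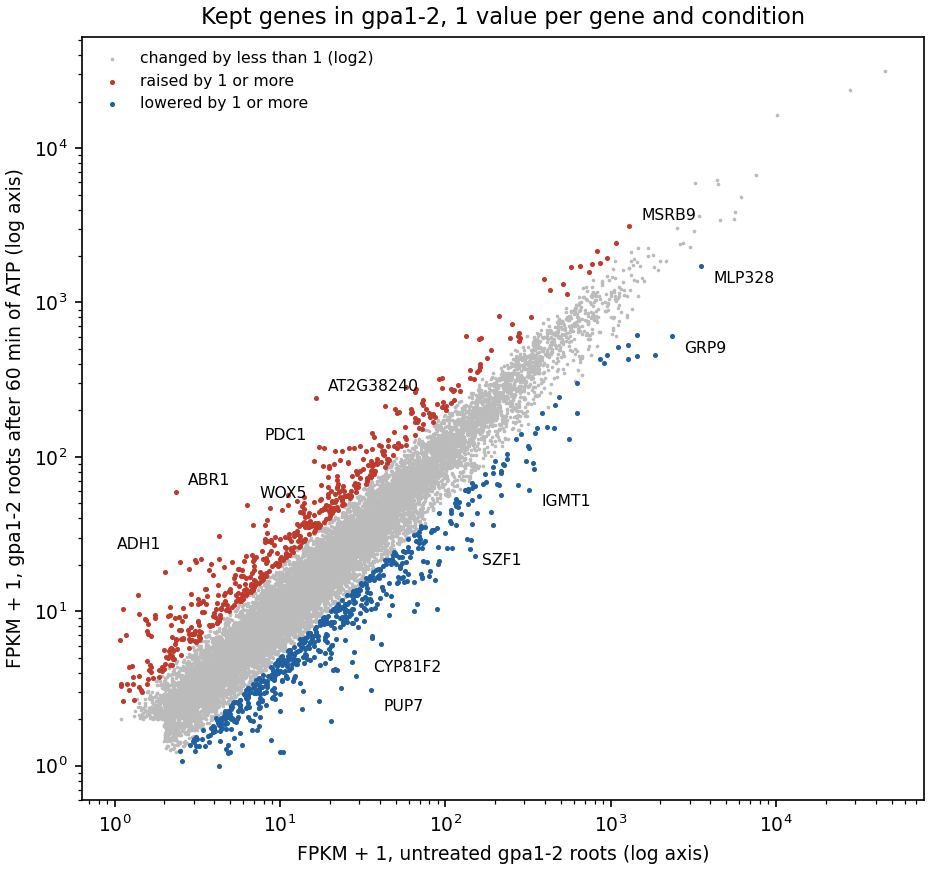
FPKM + 1 of each of the 18766 kept genes in untreated gpa1-2 roots (horizontal) and in gpa1-2 roots after 60 min of ATP (vertical), both on log axes, with 526 raised genes in red, 568 lowered genes in blue and the rest in grey. Most genes lie along the diagonal, and raised genes reach up to an FPKM of 3119 (MSRB9) and lowered genes start from up to 3499 (MLP328).

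Coverage bore on the share of genes past the threshold. Among the 13541 well-covered genes, those with a scaled count sum of 100 or more, 359 were raised (2.65%) and 344 were lowered (2.54%), 5.19% in all. Among the 1081 genes with a sum from 12 to 25, 9.53% passed in either direction, against 5.68% of the 2991 genes with a sum of 1000 or more and 5.83% of all kept genes. Raised genes made up 2.38% of genes with a mean under 5 FPKM and 4.63% of those at 500 FPKM or more, and lowered genes 3.57% and 3.4%. The split depended on the measure. With recovered reads, 0.5 added, scaled to each profile's total, in place of log2(FPKM + 1), 602 genes were raised and 1028 lowered. Thus 36.93% of changed genes were raised, in place of 48.08%. That measure changes both the scaling and the constant added. A pseudocount of 0.1 alone gave 700 raised and 828 lowered, and upper-quartile scaling alone gave 473 and 627.

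The largest rise among well-covered genes was that of ABR1, an AP2/ERF factor that represses abscisic acid responses. It went from 1.34 to 58.5 FPKM (21 and 990 reads), 43.7-fold (28.4 to 70.9), and from 1.25 to 70.5 FPKM in WS, so both genotypes started and ended at similar levels. AT2G38240, annotated as a 2-oxoglutarate- and Fe(II)-dependent oxygenase, went from 15.5 to 241 FPKM on 200 and 3364 reads, 15.6-fold (13.5 to 18.1). JRG21 and AT5G05600, its relatives in the same oxygenase family, were raised too, with responses of 2.85 and 1.18. RNS1, a secreted ribonuclease induced by wounding and phosphate starvation, went from 16.1 to 115 FPKM and from 17.3 to 115 FPKM in WS. Its 2 pairs of values were nearly the same.

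Several of the other large rises were in regulators. WOX5, the homeobox factor that marks the quiescent centre of the root tip, went from 5.29 to 48.1 FPKM (33 and 324 reads), 9.104-fold (6.35 to 13.5), and from 2.64 to 50.1 FPKM in WS. LBD12, a LOB-domain protein, went from 17.4 to 113 FPKM, and LAF1, a MYB factor of phytochrome A signalling, from 3.28 to 20.97 FPKM. MAPKKK15, a kinase at the top of MAP kinase cascades, went from 15.1 to 93.7 FPKM with a response of 2.55 in gpa1-2 and 1.58 in WS. AT5G48430, annotated as an aspartyl protease, and AT5G02350, annotated with a C1 domain rich in cysteine and histidine, had responses of 2.74 and 2.44. ABR1, ADH1, NIP2;1 and LAF1 overlap another annotated gene, and whether the counting used strand was not given, so reads of the partner cannot be set apart there. Such an overlap was annotated for 100 of the 526 raised genes (19%), 122 of the 568 lowered genes (21.5%) and 28.9% of all kept genes.

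MAPR2 and AT3G59710 were the 2 of the 15 largest rises without the same sign in WS. MAPR2, a membrane-associated progesterone-binding protein, went from 0.119 to 9.403 FPKM in gpa1-2 on 4 and 304 reads and from 9.43 to 0.136 FPKM in WS, a near mirror image at the same 2 levels. AT3G59710, annotated as a Rossmann-fold NAD(P)-binding protein, went from 7.72 to 45.6 FPKM in gpa1-2 and from 11.3 to 9.72 FPKM in WS.

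Among the largest falls were genes of purine transport and of indole defence compounds. PUP7, a purine permease, went from 34.6 to 2.099 FPKM (520 and 34 reads), 16.5-fold (11.7 to 24.1) lower after ATP, and PUP21 from 12.6 to 1.32 FPKM. CYP81F2, the P450 that hydroxylates indole glucosinolates and is needed for callose responses to pathogens, went from 28.01 to 2.78 FPKM, 10.1-fold (7.55 to 13.7) lower, and from 6.37 to 3.31 FPKM in WS. In untreated roots CYP81F2 was thus higher in gpa1-2 than in WS, and after ATP both were near 3 FPKM. IGMT4, one of the methyltransferases that act after CYP81F2, went from 151 to 21.6 FPKM, 7.005-fold (6.21 to 7.92) lower.

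Stress regulators and an mRNA-decay enzyme were also among the largest falls. SZF1, a tandem zinc finger protein of salt stress, went from 139.8 to 24.4 FPKM, 5.73-fold (5.25 to 6.27) lower. CAF1a, a deadenylase that shortens mRNA tails, went from 85.5 to 14.96 FPKM, and DDF1, a DREB factor that promotes gibberellin breakdown, from 34.9 to 5.696 FPKM. PUB29, a U-box ubiquitin ligase, and DIC2, a mitochondrial dicarboxylate carrier, had responses of -2.73 and -2.60, and in WS of -2.41 and -2.46. For SZF1, CAF1a and DDF1 the WS response was the larger one, at -3.17, -2.87 and -3.03.

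OSM34, an osmotin-like protein of the thaumatin family, went from 194 to 35.02 FPKM in gpa1-2, 5.54-fold (4.94 to 6.22) lower, and from 85.2 to 54.5 FPKM in WS. AT4G14060, annotated as a major latex protein-like protein, went from 87.6 to 9.33 FPKM on 470 and 54 reads, while WS read 31.5 FPKM in both conditions. CYP706A1 and its neighbour in the family CYP706A2 had responses of -2.54 and -2.41, with -1.33 and -1.38 in WS. AT2G34610 and AT1G19960, annotated as uncharacterized proteins, had -2.86 and -2.67. All 15 of the largest falls were negative in WS as well, 12 of them at -1 or less, and 13 of the 15 largest rises reached 1 in WS.

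**Figure D2:**
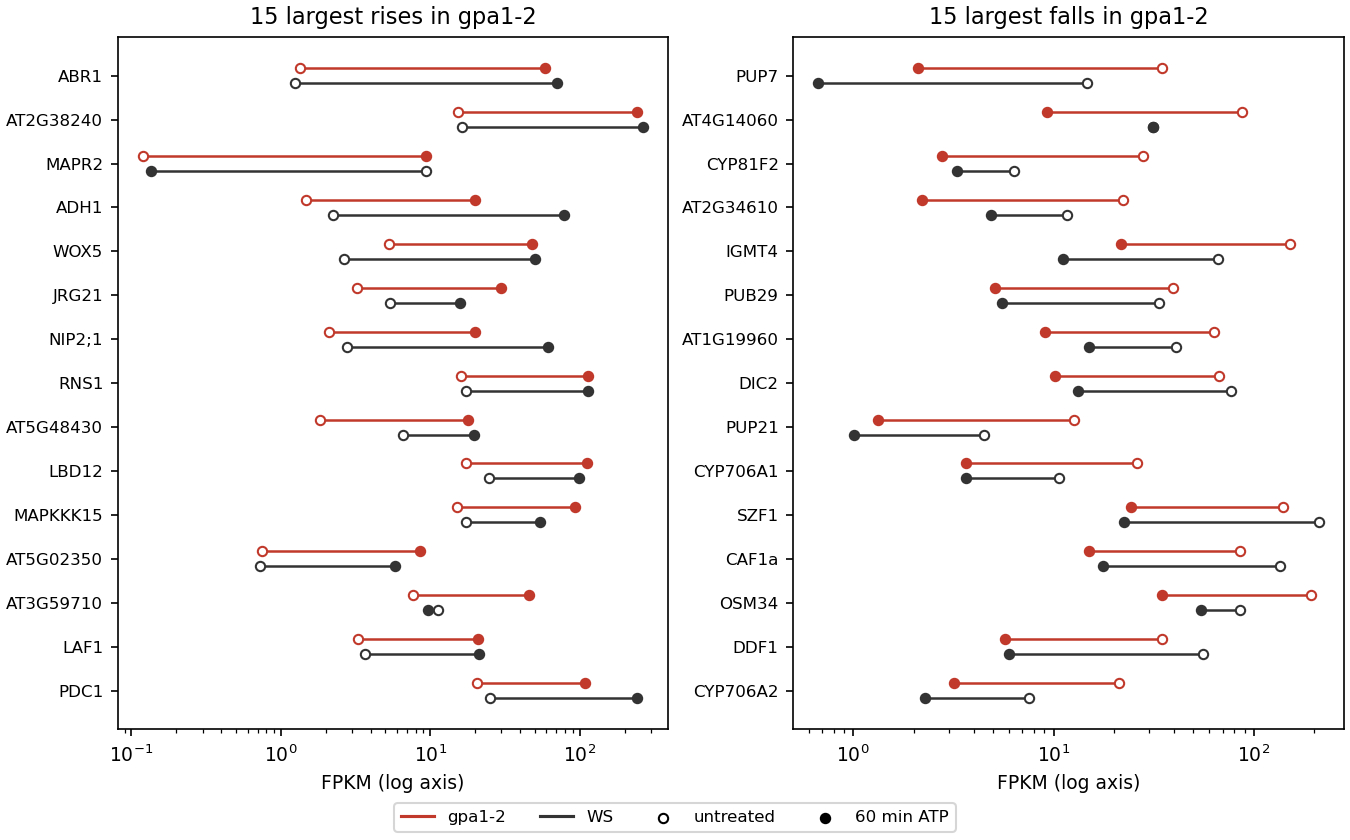
FPKM (log axis) of the 15 well-covered genes with the largest rises (left) and the 15 with the largest falls (right) in gpa1-2, with gpa1-2 in red and WS in black, open circles for untreated roots and filled circles for 60 min of ATP. MAPR2 runs in opposite directions in the 2 genotypes, AT4G14060 is a single point in WS at 31.5 FPKM, and most other pairs of lines run the same way.

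The 10 most abundant raised genes included 2 methionine sulfoxide reductases and 4 glutathione S-transferases. MSRB9, a methionine sulfoxide reductase that repairs oxidised methionine, went from 1296 to 3119 FPKM, 2.403-fold (2.34 to 2.46), on 8760 and 22702 reads, and its neighbour MSRB7 went from 821 to 2161 FPKM. MDHAR, which regenerates ascorbate, went from 655 to 1727 FPKM, and the glutathione S-transferases, which conjugate glutathione to reactive compounds, GSTU5, GSTU24, GSTU25 and GSTU26, had responses of 1.37, 1.09, 1.57 and 1.02. GGP1, the peptidase that processes glutathione conjugates in glucosinolate synthesis, went from 767 to 1765 FPKM. The arabinogalactan peptide AGP12 and the defensin-like AT4G22212 had responses of 1.16 and 1.06. All 10 were positive in WS, from 0.13 to 1.24, each smaller there than in gpa1-2, and 1 of them, GSTU5, reached 1. Because the 10 were chosen by their rise in gpa1-2, these sizes do not compare the genotypes.

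The most abundant lowered genes held 2 major latex proteins and 3 glycine-rich proteins. MLP328 went from 3499 to 1714 FPKM and MLP329 from 1439 to 619 FPKM. GRP9, one of the glycine-rich proteins, went from 2348 to 603 FPKM, 3.93-fold (3.78 to 4.08) lower, on 11698 and 3213 reads, and from 1100.1 to 1041 FPKM in WS. AT2G05510, annotated as a glycine-rich protein too, had -1.69 in gpa1-2 and -0.23 in WS, and DOT1, a glycine-rich protein involved in vein patterning, went from 1264 to 527 FPKM in gpa1-2 and from 919 to 1002 FPKM in WS. These 3 glycine-rich genes were higher in untreated gpa1-2 than in untreated WS. AT2G33830, annotated as dormancy- and auxin-associated, went from 1864 to 455 FPKM, with a WS response of -1.51. AT4G11320, annotated as a cysteine proteinase, went from 1278 to 428 FPKM. The other 3 of the 10 were AT3G15450, an aluminum induced protein by its annotation, with a response of -1.11, AT4G23680 with -1.16, and GSTF2, taken up with its family.

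Gene lists were described by their medians and counts, and of the 55 with 5 or more kept members 8 had a median of 0.5 or more and 4 of -0.5 or less. The highest medians were those of ERF group X (1.85), jasmonate breakdown (1.07), flavonol synthesis (0.92), low-oxygen response (0.89), nitrate (0.85), the genes the study followed by qPCR (0.60), the cytosolic ribosome (0.57) and core histones (0.56). The lowest were photosynthesis (-0.99), ERF group IX (-0.87), gibberellin enzymes (-0.56) and the list of cytokinin response regulators, which also holds cytokinin oxidases (-0.55). The median of all kept genes was 0.03, and the lists were drawn up with earlier results of these data known. Some of these medians moved by over 1.5 times under the processing alternatives: ERF group X went down to 0.32, flavonol synthesis to 0.58 and the cytosolic ribosome to 0.37, photosynthesis lay between -1.41 and -0.49, gibberellin enzymes between -0.99 and -0.26 and cytokinin response regulators between -0.76 and -0.31. The median of the genes followed by qPCR changed sign, to -0.10, with an FPKM filter of 10. Counts of raised and lowered members below stand beside 2.8% and 3.03% of all kept genes.

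**Figure D3:**
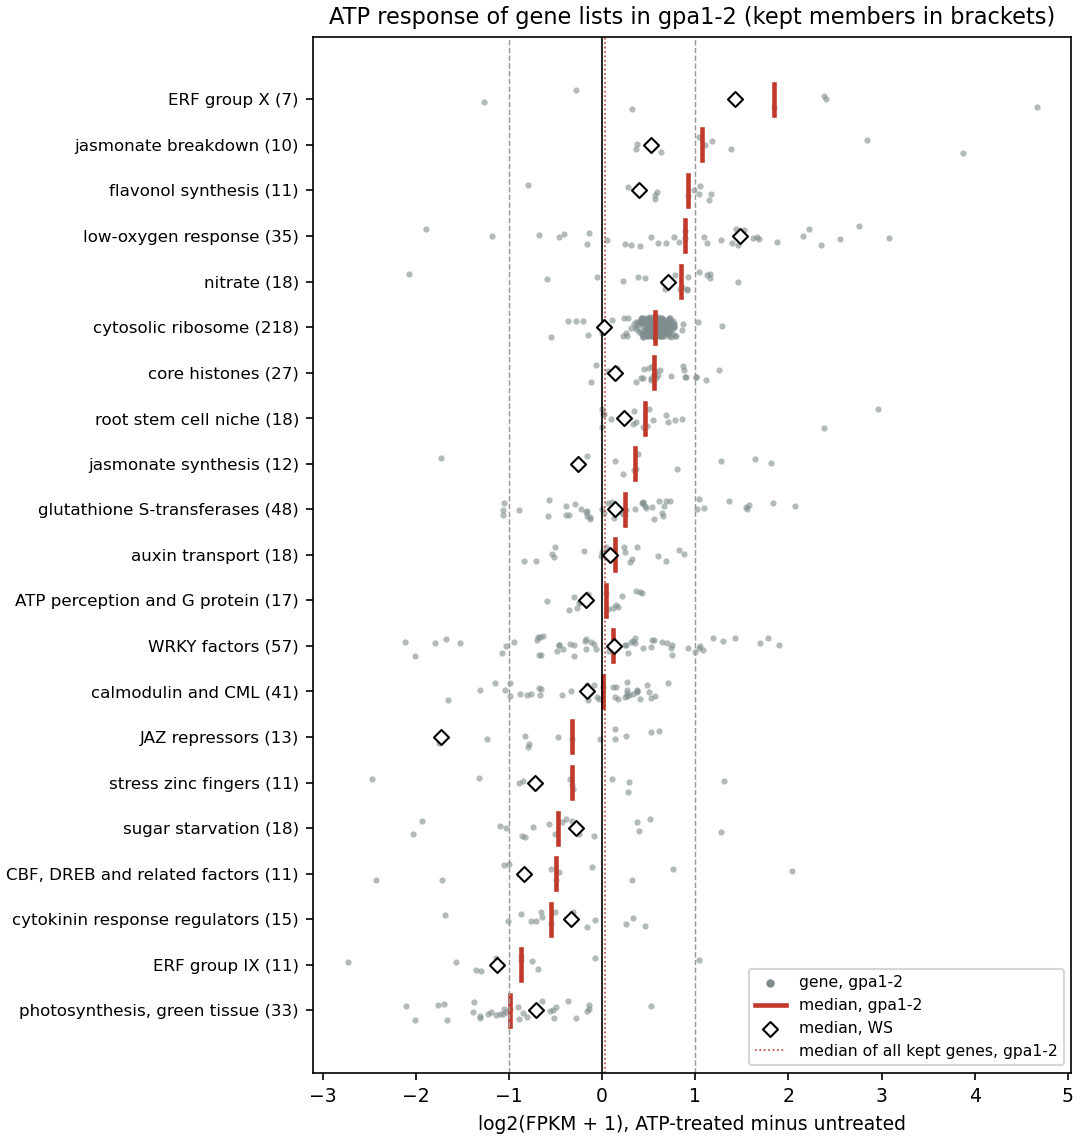
Response in gpa1-2, as log2(FPKM + 1) after ATP minus before, of each kept member (grey points) of 21 gene lists, with the list's median in gpa1-2 (red bar) and in WS (open diamond), the median of all kept genes (dotted) and the thresholds of 1 and -1 (dashed). The JAZ repressors have a median of -0.32 in gpa1-2 and -1.73 in WS, and the cytosolic ribosome 0.57 and 0.02.

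When respiration runs short of oxygen plants switch to fermentation, and the genes of this low-oxygen response were the list with the most raised members. Of 37 genes 35 were kept, 17 were raised (48.6%) and 2 lowered, beside 2.8% and 3.03% of all kept genes, and the median was 0.89. ADH1, alcohol dehydrogenase, went from 1.47 to 19.9 FPKM (21 and 307 reads), 13.6-fold (8.71 to 22.2), and PDC1, the pyruvate decarboxylase that feeds it, went from 20.5 to 108 FPKM, 5.28-fold (4.78 to 5.85). NIP2;1, an aquaporin that carries lactic acid, went from 2.11 to 19.98 FPKM, 9.48-fold (6.11 to 15.4). All 3 were raised, ADH1 and NIP2;1 from low levels.

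Other low-oxygen genes gave smaller values. SUS4, a sucrose synthase, went from 4.32 to 14.2 FPKM, the haemoglobin HB1 from 26.3 to 74.2 FPKM, and ERF73, one of the ERF group VII factors that this response runs through, from 30.7 to 82.3 FPKM. PCO1, a cysteine oxidase that marks those factors for breakdown, went from 5.25 to 21.9 FPKM, and the LOB-domain protein LBD41 from 28.8 to 62.5 FPKM. RAP2.12 and RAP2.2, the constitutive factors of the group, stayed at 176 and 183 FPKM and at 61.6 and 55.7 FPKM. RAP2.3 was lowered, from 31.1 to 7.68 FPKM, and so was AT1G19530, annotated as an uncharacterized protein, from 135 to 59.2 FPKM. In WS 23 of 35 were raised and the median was 1.48, and 6 of the 35 had the larger response in gpa1-2. ADH1 went from 2.24 to 78.3 FPKM in WS and PDC1 from 24.98 to 243 FPKM in WS.

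Members of the ethylene response factor family split by group. ERF group X, which holds factors induced by wounding and jasmonate, had 4 of 7 members raised and 1 lowered. RAP2.6 went from 163 to 589 FPKM, 3.61-fold (3.402 to 3.84), and from 156 to 572 FPKM in WS, and ERF114 and ERF115, a regulator of quiescent centre division, went from 2.84 to 19.3 FPKM and from 0.595 to 7.31 FPKM on few reads, 23 and 169 for ERF114 and 4 and 53 for ERF115. ERF109, a jasmonate-induced activator of auxin synthesis, went the other way, from 114 to 46.8 FPKM, and from 227 to 28.9 FPKM in WS. The median of this list of 7 rested on few genes, since it was 0.32 over its 5 well-covered members.

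ERF group IX, which holds activators of defence genes under ethylene and jasmonate, had 1 of 11 kept members raised and 5 lowered, with a median of -0.87. ERF1 went from 16.3 to 1.61 FPKM on 141 and 15 reads, ERF2 from 24.8 to 9.11 FPKM, ERF13 from 40.9 to 16.1 FPKM and ERF104 from 21.5 to 9.18 FPKM. ERF106 was the member raised, from 27.7 to 58.2 FPKM, and ERF5 stayed at 42.6 and 40.4 FPKM. Among CBF and DREB factors, which act in cold and drought, 4 of 11 were lowered, including DREB2A (from 58.1 to 28.5 FPKM), and 1 was raised, TINY, from 11.6 to 50.9 FPKM, 4.38-fold (3.55 to 5.44), with a response of 2.17 in WS.

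Jasmonate is made from linolenic acid, is joined to isoleucine by JAR1, and in that form removes JAZ repressors and frees MYC2. All 10 kept genes of jasmonate breakdown had a response above 0, against 53.2% of all kept genes, and 6 were raised, among them AT2G38240, JRG21 and AT5G05600, which are on this list. ST2A, a hydroxyjasmonate sulfotransferase, went from 11.7 to 31.9 FPKM, IAR3, which cleaves the isoleucine conjugate, from 148 to 319.9 FPKM, and CYP94B1, which oxidises it, from 22.8 to 47.9 FPKM. CYP94B3 and CYP94C1 were below the threshold at 0.63 and 0.37.

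Of 12 kept genes of jasmonate synthesis 3 were raised (25%) and 1 lowered (8.33%), beside 2.8% and 3.03% of all kept genes. Their median was 0.35, with 9 of 12 above 0. LOX6, a lipoxygenase, went from 18.9 to 47.1 FPKM and JAR1 from 60.9 to 192 FPKM, 3.15-fold (2.97 to 3.36), whereas the lipoxygenase LOX4 went from 26.8 to 7.34 FPKM, 3.64-fold (3.17 to 4.21) lower. Of the enzymes between them the allene oxide cyclase AOC1 was raised, from 3.195 to 13.7 FPKM, and AOC2 had a response of 0.80, below the threshold. AOS was at 179 and 209.9 FPKM and OPR3 at 385 and 424 FPKM. AOS went from 242 to 119.8 FPKM in WS.

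The JAZ repressors, themselves early jasmonate targets, had 2 of 13 members lowered in gpa1-2, JAZ7 (from 50.3 to 14.2 FPKM) and AT3G22275 (from 36.3 to 14.8 FPKM), and a median of -0.32. JAZ1 went from 513 to 369 FPKM in gpa1-2 and from 654 to 284 FPKM in WS, JAZ2 from 285 to 159 FPKM and from 404 to 93.5 FPKM in WS, and JAZ10 from 225 to 248 FPKM and from 323 to 124 FPKM in WS. In WS 9 of 13 were lowered and 1 raised, with a median of -1.73, and 12 of the 13 responses were lower there. Before ATP, JAZ1, JAZ2 and JAZ10 were higher in WS, and after ATP they were lower in WS, so both ends of the comparison differed. MYC2, the master regulator of the pathway, went from 217 to 80.5 FPKM and from 274 to 74.4 FPKM in WS, and JAM1, a repressor of MYC2 targets, from 40.6 to 13.3 FPKM. TAT3, a tyrosine aminotransferase induced by jasmonate, went from 211 to 819 FPKM, 3.89-fold (3.74 to 4.03), and from 253 to 451 FPKM in WS, while the vegetative storage protein gene VSP1 stayed at 84.4 and 75.4 FPKM.

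**Figure D4:**
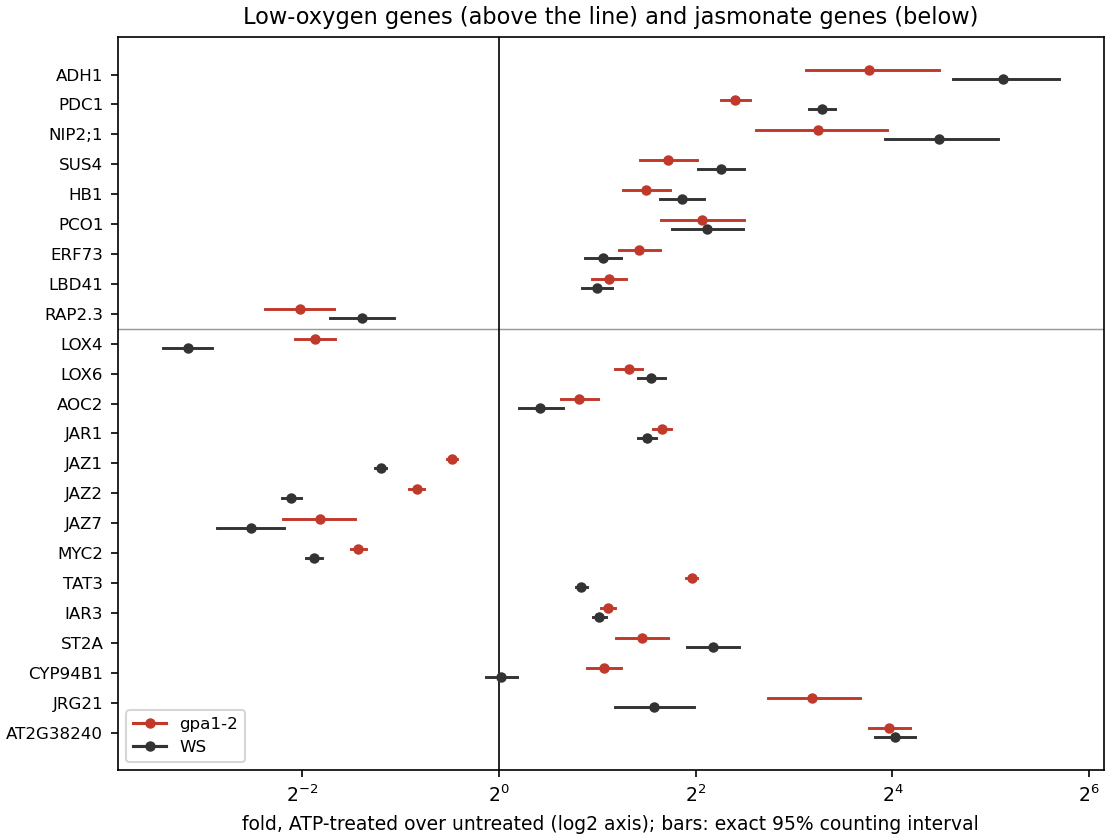
Fold of ATP-treated over untreated roots (log2 axis) in gpa1-2 (red) and WS (black) for 9 low-oxygen genes above the grey line and 14 jasmonate genes below it, with points at the fold and bars for the exact 95% counting interval. ADH1, PDC1 and NIP2;1 lie further right in WS, JAZ1, JAZ2 and LOX4 lie further left in WS, and AT2G38240 has overlapping bars.

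Genes of wound and immune signalling held members on both sides. The PROPEP genes encode precursors of danger peptides, and PROPEP3 went from 78.4 to 16.03 FPKM, 4.89-fold (3.65 to 6.66) lower, and PROPEP2 from 39.3 to 17.5 FPKM, while PROPEP4 was raised, from 244 to 589 FPKM, 2.41-fold (2.23 to 2.59999). Their receptors PEPR1 and PEPR2 stayed within the threshold at 0.42 and -0.51. Among WRKY factors 9 of 57 were raised (15.8%) and 7 lowered (12.3%), with a median of 0.12. WRKY33, an activator of camalexin synthesis, went from 188 to 42.7 FPKM, 4.41-fold (4.1003 to 4.75) lower, and WRKY18 and WRKY53 from 159.7 to 54.8 FPKM and from 18.9 to 4.72 FPKM. WRKY29 went from 51.2 to 194 FPKM, 3.79-fold (3.41 to 4.23), and WRKY22, its relative downstream of MAP kinases, from 20.98 to 74.5 FPKM. Of 11 stress zinc fingers ZAT10, a repressor of the C2H2 type, was lowered beside SZF1, from 118 to 46.3 FPKM, and ZF3 was raised, from 23.3 to 59.1 FPKM. MYB51, a regulator of indole glucosinolates, went from 44.5 to 8.47 FPKM, 5.26-fold (4.41 to 6.305) lower.

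Ca2+ channel and pump genes and Ca2+-dependent protein kinases passed the threshold at shares not far from those of all kept genes, 2.8% raised and 3.03% lowered. Calmodulin and CML genes were lowered at a higher share. Of 48 kept channel and pump genes 2 were raised and 2 lowered (4.17% each), of 28 Ca2+-dependent protein kinases 1 was raised, and of 41 calmodulin and CML genes 4 were lowered (9.76%), including CML37 (from 32.2 to 13.96 FPKM) and CML40 (from 70.7 to 33.8 FPKM), and none were raised. The vacuolar Ca2+ exchanger CAX3 went from 45.7 to 11.5 FPKM, 3.96-fold (3.42 to 4.61) lower, the cyclic-nucleotide-gated channel CNGC1 from 17.9 to 7.74 FPKM, and the glutamate receptor-like channel GLR3.5 from 3.24 to 7.77 FPKM. Among 44 MAP kinase genes MAPKKK15 was the one raised (2.27%), and MPK3, a kinase of the immune cascade, the one lowered, from 68.5 to 29.8 FPKM. RBOHD, the NADPH oxidase of immune signalling, went from 69.1 to 42.7 FPKM, within the threshold.

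None of 17 kept ATP perception and G protein genes was raised or lowered, with responses from -0.59 to 0.42. Since 5.83% of all kept genes passed the threshold, a count of 0 among 17 is near the background. LecRK-I.9 was at 39.4 and 35.4 FPKM, the Gβ subunit AGB1 at 63.6 and 51.4 FPKM, and the apyrase APY1 at 29.5 and 39.6 FPKM. XLG2 had the response furthest from 0, from 26.8 to 17.4 FPKM. Purine transport and nucleoside genes held 5 lowered of 21 kept (23.8%), PUP7, PUP8, PUP10, PUP14 and the adenine phosphoribosyltransferase APT2. PUP21 was lowered too but is not on this list. The nucleoside transporter FUR1 was the 1 member raised, from 5.02 to 20.3 FPKM. NSH3, a hydrolase of extracellular nucleosides, went from 46.7 to 87.3 FPKM, below the threshold.

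Indole glucosinolates are tryptophan-derived defence compounds, and of 18 kept genes of these compounds and camalexin 3 were raised and 3 lowered (16.7% each), with a median of 0.16. IGMT3 and IGMT4 were lowered too, but they are not on this list and are left out of its counts. GGP1 was raised, as given above, while CYP79B2 and CYP83B1, which also act in core synthesis, went from 159.9 to 238 FPKM and from 316 to 442 FPKM, below the threshold. Of the genes that decorate the ring CYP81F2 was lowered, as were IGMT1 (from 321 to 60.4 FPKM) and IGMT2 (from 211 to 64.8 FPKM), while CYP81F3, another ring hydroxylase, was raised, from 17.3 to 86.3 FPKM, 4.98-fold (4.402 to 5.66), and CYP81F4 and IGMT5 had -0.50 and 0.24. PAD3, the last enzyme of camalexin synthesis, went from 3.07 to 8.16 FPKM. In WS CYP81F3 and IGMT1 had responses of 1.48 and -2.65. The IGMT genes are near-identical copies, and how shared reads were divided among them was not given, so their separate values are uncertain.

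Flavonol synthesis had 4 of 11 kept genes raised (36.4%) and none lowered, with a median of 0.92 and 10 of 11 above 0. F3H was raised, from 17.6 to 37.04 FPKM, as was flavonol synthase FLS1, from 10.7 to 24.8 FPKM, 2.33-fold (1.91 to 2.87). Chalcone synthase TT4, the first step, went from 44.4 to 84.7 FPKM, just below the threshold. TT4, F3H and FLS1 started lower in gpa1-2 than in WS, where they were at 99.7, 32.4 and 27.999 FPKM. The WS values after ATP were 114, 41.6 and 35.9 FPKM, so the genotypes were closer after ATP than before. TT7, a flavonoid hydroxylase and the member below 0, went from 2.04 to 0.748 FPKM on 38 and 15 reads.

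The P450 family, 139 kept genes of oxidative metabolism, had 15 raised (10.8%) and 14 lowered (10.1%), beside 2.8% and 3.03% of all kept genes. CYP87A2 went from 22.9 to 108 FPKM, 4.74-fold (4.27 to 5.26), and CYP705A30 from 65.8 to 276 FPKM, 4.19-fold (3.93 to 4.48), and from 83.2 to 160.1 FPKM in WS. The sterol desaturases CYP710A4 and CYP710A2 went in opposite directions, from 14.998 to 40.8 FPKM and from 23.2 to 7.55 FPKM, though their sequences are close enough to share reads. Glutathione S-transferases had 9 of 48 raised (18.8%), 3 lowered (6.25%) and a summed level of 11770 FPKM before and 18591 after ATP, against 11784 and 15651 in WS. GSTU6 went from 395 to 1408 FPKM, 3.57-fold (3.42 to 3.72), and GSTF2 went from 943 to 454 FPKM, and GSTF3, of the same phi class, was lowered with it. Of the tau class GSTU10 was the member lowered, from 43.7 to 20.3 FPKM. MRN1, the marneral synthase of a root triterpene cluster, went from 32.8 to 72.2 FPKM and from 44.1 to 36.7 FPKM in WS.

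Genes of the cytosolic ribosome moved together by a small amount. Of 218 kept genes 212 had a response above 0 (53.2% of all kept genes did), 156 reached 0.5 (12.3% of all kept genes did), 2 were raised and none were lowered. The median was 0.57, with quartiles of 0.48 and 0.64, and the summed level went from 78185 to 118167 FPKM. In WS the median was 0.02, 2 of these 218 genes reached 0.5 (10.7% of all kept genes did), and the summed level went from 95087 to 97507 FPKM. The response was above that of WS for 214 of the 218 genes, against 54.2% of all kept genes. RPL24A, for example, went from 265 to 452 FPKM in gpa1-2 and from 363 to 371 FPKM in WS, so untreated gpa1-2 roots were the lowest of the 4 values and ATP-treated gpa1-2 roots the highest.

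Total FPKM was 1054910 before and 1135390 after ATP in gpa1-2, and reference genes leaned the same way as the ribosome. Of 19 reference genes 16 were above 0, with a median of 0.17 against 0.00 in WS, and the elongation factor AT5G60390 went from 786 to 1167 FPKM and UBQ10 from 1467 to 2237 FPKM, while the responses of ACT7 and PP2AA3 were 0.15 and 0.12. The part of library composition in the ribosome values was not tested, and the lowest median of the list, 0.37, was under a processing alternative. Plastid and mitochondrial ribosome genes had a median of 0.10 over 84 genes. Core histone genes, which are made in S phase, had 4 of 27 raised (14.8%), 25 above 0 and a median of 0.56, and HTB1, a histone H2B, went from 95.1 to 208 FPKM. Cell division genes had a median of 0.10 with none of 57 raised and 2 lowered (3.51%), near the background. ICK1, an inhibitor of cyclin-dependent kinases, was one of the lowered genes, from 18.4 to 8.27 FPKM. The cyclin cycp3;1 was raised with a response of 1.62. It is not on this list, although CYCP3;2 and CYCP4;3 are, with responses of 0.82 and -1.15, so the count of raised genes leaves it out.

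Nitrate genes had 5 of 18 raised (27.8%), HB1 among them, and 1 lowered, with a median of 0.85 against 0.70 in WS. NIR1, nitrite reductase, was raised from 71.8 to 161 FPKM and the regulator NLP7 from 15.4 to 32.7 FPKM. The nitrate reductases NIA1 and NIA2 went from 68.5 to 129 FPKM and from 107 to 185 FPKM, below the threshold. NRT1.5, which loads nitrate into the xylem, was the member lowered, from 274 to 64.4 FPKM, 4.26-fold (4.03 to 4.51) lower. Markers of sugar starvation had 4 of 18 lowered (22.2%) and a median of -0.47, with SEN1, a gene induced by darkness, from 23.8 to 5.48 FPKM, and ASN1, asparagine synthetase, raised, from 35.3 to 87.3 FPKM. FIT, the factor that switches on iron uptake, went from 12.5 to 47.3 FPKM in gpa1-2, 3.78-fold (3.13 to 4.58), and from 17.3 to 27.7 FPKM in WS, while NAS1, which makes the iron chelator nicotianamine, went from 23.8 to 8.89 FPKM in gpa1-2 and from 11.2 to 17.2 FPKM in WS. IRT2, an iron transporter, went from 60.4 to 34.8 FPKM.

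Auxin transport genes, which the study turned to for root bending, had none of 18 kept genes raised or lowered, near the 5.83% of all kept genes that passed, while in WS 3 of 18 were raised and 1 lowered. PIN2, the carrier that moves auxin shootwards in the root epidermis, went from 36.3 to 64.95 FPKM in gpa1-2, 1.79-fold (1.65 to 1.95), and from 40.6 to 90.5 FPKM in WS. PIN3 went from 22.6 to 42.6 FPKM and PIN4 from 15.5 to 9.13 FPKM, and AUX1, the influx carrier, stayed at 55.8 and 72.5 FPKM. Among auxin response genes LBD16, which acts in lateral root founding, was raised, from 5.84 to 20.04 FPKM, 3.43-fold (2.57 to 4.64), as was the repressor IAA14, from 12.1 to 28.3 FPKM, while GH3.17, which conjugates auxin, was lowered, from 27.99 to 7.94 FPKM.

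In the root stem cell niche list 17 of 18 kept genes were above 0, against 53.2% of all kept genes. WOX5 and ERF115 were the 2 raised (11.1%, against 2.8% of all kept genes). Only 7 of the 18 were well covered, ERF115 not among them. In WS 15 of 18 were above 0 and 2 were raised. PLT3, a factor that maintains the niche, went from 13.6 to 25.5 FPKM and SCR from 11.96 to 17.4 FPKM, below the threshold. The list of cytokinin response regulators, which are induced by that hormone, also holds CKX genes, which encode cytokinin oxidases. Of its 15 kept members 12 were at 0 or below, with a median of -0.55 against -0.34 in WS, and CKX1 was the highest at 0.46. Of the regulators ARR5 went from 32.1 to 9.24 FPKM, 3.47-fold (2.85 to 4.25) lower. The abscisic acid and dehydration list had 3 of 26 raised, among them LTI78, a cold and drought marker, from 21.1 to 62.7 FPKM, and from 11.4 to 179.6 FPKM in WS, and NCED3, the rate-limiting enzyme of abscisic acid synthesis, was lowered, from 31.6 to 11.3 FPKM.

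Of 21 kept ethylene genes 3 were lowered (14.3%) and none raised. ACS2, ACS5 and ACS6 encode ACC synthases, which set the rate of ethylene synthesis, and they had responses of -1.01, -1.02 and -1.33, ACS6 going from 68.5 to 26.7 FPKM. ACS7 and ACS11, of the same enzyme family, had -0.01 and 0.05. The receptor ETR2 and the F-box protein EBF2, both induced by ethylene, went from 7.54 to 15.7 FPKM and from 84.4 to 159 FPKM, below the threshold. Of 22 expansins 2 were raised and none lowered, and of 28 xyloglucan enzymes 2 were raised and 2 lowered. The expansins EXP3 and EXPA1, which loosen walls, were raised, EXP3 from 7.11 to 26.95 FPKM and EXPA1 with a response of 1.24, and of the xyloglucan enzymes XTH24 was lowered, from 625 to 190.2 FPKM, and TCH4, a touch-induced member, raised, from 19.6 to 49.9 FPKM. Of 30 aquaporins 2 were raised (6.67%) and none lowered, NIP2;1 and AT2G29870, which rested on 1 and 23 reads.

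Several other lists had shares near those of all kept genes. None of the kept members was raised or lowered among 18 circadian clock genes, 20 root hair genes, 14 genes of endoplasmic reticulum stress and 8 NADPH oxidases. Of 134 LRR receptor kinases 3 were raised (2.24%) and 2 lowered (1.49%), of 55 class III peroxidases 2 (3.64%) and 1 (1.82%), and of 20 phosphate genes 1 was lowered. Among 17 iron genes 1 was raised and 1 lowered, FIT and NAS1. Other shares were higher: of 30 SAUR genes, a family of auxin-induced transcripts, 4 were raised (13.3%) and 2 lowered (6.67%), with 9 of the 30 well covered. Small lists gave 2 raised and 3 lowered of 11 MYB stress factors, 2 and 2 of 10 cysteine-rich receptor-like kinases, 1 and 0 of 7 genes of the thalianol and marneral clusters and 1 and 0 of 4 touch genes.

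The profiles also held low levels of genes of green tissue. Of 33 kept photosynthesis genes 16 were lowered, none were raised and 1 was above 0, with a median of -0.99 against -0.71 in WS. Their summed level went from 243 to 110 FPKM in gpa1-2 and from 254 to 162 FPKM in WS, and RBCS1A, the small subunit of Rubisco, went from 6.29 to 0.693 FPKM on 59 and 7 reads. Only 3 of the 33 were well covered, LHCB4.1 among them, from 15.2 to 4.07 FPKM. In these bulk samples fewer cells of a type and less RNA per cell cannot be told apart, and the part of green tissue in the other values was not tested.

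Of 11 genes the study followed by qPCR, 9 were kept and GH3.4 and CRK40 were below the filter, on 3 and 5 reads for GH3.4 and 9 and 1 for CRK40. In gpa1-2 3 were raised and 2 lowered, and in WS 4 were raised and 1 lowered. By qPCR the study reported these genes as enhanced by ATP in WS. In the Gα mutants it reported either no significant increase or a weaker one. Since the study chose them on these samples, a direction that matches its report is not independent evidence. The kinases WAG1 and WAG2, which phosphorylate PIN proteins, went from 5.42 to 8.71 FPKM and from 9.52 to 11.95 FPKM in gpa1-2. WS went from 2.796 to 8.18 FPKM for WAG1 and from 6.52 to 11.99 FPKM for WAG2, so the treated levels were close in the 2 genotypes and the untreated ones were lower in WS. ATH7, an ABC transporter, went from 12.7 to 2.04 FPKM in gpa1-2 and from 3.68 to 6.82 FPKM in WS, on 400 and 69 reads in gpa1-2. AT3G27220, a kelch repeat protein, went from 12.9 to 36.7 FPKM and CRK5 from 21.3 to 14.7 FPKM. ERF1 was lowered in both genotypes, with responses of -2.73 in gpa1-2 and -3.24 in WS. For this gene the study reported by qPCR a rise in WS and a weaker one in the mutants, which is the opposite direction. The treated ERF1 values here rested on 15 reads in gpa1-2 and 7 in WS. The cyclin cycp3;1 was raised in gpa1-2, with a response of 1.62. For this cyclin the study reported no significant increase in the mutants. The qPCR also covered an earlier time and another Gα null mutant, and the study's text does not say when each rise was seen. Its text and figure legend give different ATP concentrations for the qPCR. The qPCR and the profiles are therefore not matched in time, ATP concentration and allele, and the cause of these differences was not tested.

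Some raised and lowered genes lay next to one another on the chromosomes. Of the 526 raised genes 71 (13.5%) had a raised gene as the adjacent kept gene, against 5.26% of the other kept genes, and for lowered genes it was 72 of 566 (12.7%) against 5.73%. Runs of 3 or more adjacent genes numbered 6 in each direction, and the longest held 4 genes. Several runs were of 1 family: GSTU3 to GSTU6, GSTU24 to GSTU26 and MSRB7 to MSRB9 among the raised, and IGMT1 to IGMT4, the purine permeases PUP8, PUP7, PUP21 and PUP10 and the wall-associated kinases WAKL6, WAKL1 and WAKL2 among the lowered. Members of a tandem family can share reads, so they are not separate observations.

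The same comparison in WS, which used other samples, gave 536 raised genes (2.85%) and 643 lowered genes (3.42%) with a median of -0.01. Of the 526 genes raised in gpa1-2, 501 (95.2%) had a response above 0 in WS and 286 (54.4%) were raised there, which is 53.4% of the genes raised in WS. Of the 568 lowered, 534 (94%) were below 0 in WS and 254 (44.7%) were lowered there, or 39.5% of the genes lowered in WS. The 526 raised genes had a median response of 1.31 in gpa1-2 and 1.07 in WS, and the 568 lowered genes -1.28 and -0.93. Genes chosen in WS showed the reverse, with medians of 1.32 in WS and 1.05 in gpa1-2 for those raised and -1.30 and -0.88 for those lowered, so the genotype in which genes were chosen gave the larger value both ways. Only 2 genes raised in gpa1-2 were lowered in WS, and 1 lowered gene was raised there. No difference between the genotypes was tested.

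**Figure D5:**
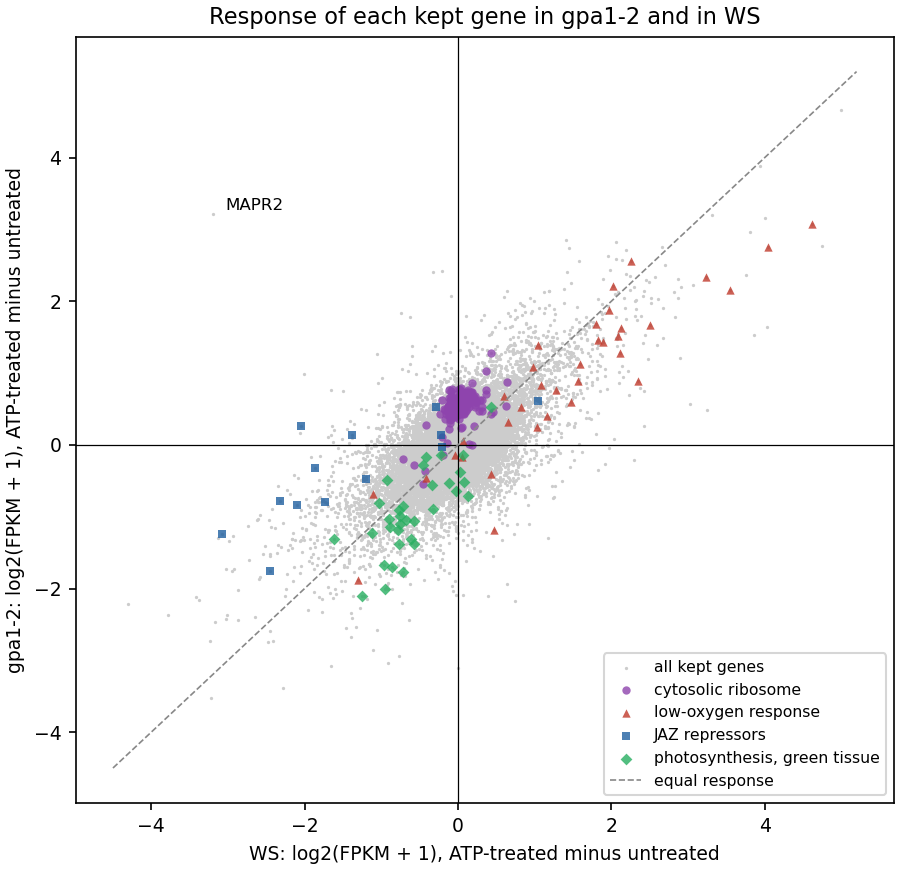
Response of each kept gene in WS (horizontal) and in gpa1-2 (vertical), both as log2(FPKM + 1) after ATP minus before, with 4 gene lists in colour and the line of equal response dashed. Genes of the cytosolic ribosome (median 0.57 in gpa1-2, 0.02 in WS) and JAZ repressors (-0.32 and -1.73) lie above the line, low-oxygen genes (0.89 and 1.48) lie mostly below it, and MAPR2 stands alone at upper left.

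Thinly covered genes, those with a scaled count sum under 100, gave large values on few reads. The 5 largest rises among them, AT2G28690, AT3G03660, AT4G25433, AT2G29870 and AT4G38410, had responses from 2.72 to 3.20, and those of AT2G28690 rested on 4 and 130 reads. The 5 largest falls, AT2G23270, AT3G14060, AT4G37290, AT3G23240 (ERF1, described above) and AT1G30370, had responses from -3.39 to -2.58. AT3G14060, at 38 and 1 reads, was 40.98-fold (6.92 to 1661) lower after ATP, so its interval spanned a wide range of folds. All 10 had the same sign in WS, and 9 of them reached 1 or -1 there.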

How the data were processed

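The labels describe WS and gpa1-2 roots, untreated and after 60 min of ATP, with 2 samples in each of 4 groups, and like the methods they speak of microarrays. The tables the authors deposited hold instead, for each gene and condition, 1 scaled count (a signal value: reads multiplied by a factor per profile) and 1 FPKM value made from both replicates, so depth per replicate is unknown. Aligner, counter, genome build and strand setting are not given in the sources used here. Column headings give bare sample numbers. Genotype and treatment were assigned to these columns in advance. The numbers of up and down genes the authors marked equal those the study states for the genotype assigned. The authors' columns of fold changes, p-values and FDR were not used.

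The response was log2(FPKM + 1) after ATP minus before. Genes needed an FPKM of 1 or more in either profile and a scaled count sum of 12 or more, and a sum of 100 or more was called well covered. Whole reads were recovered by dividing each profile's scaled counts by the value of 1 read, and within 0.1 of a whole number came 99.2% and 99.1% of values up to 20 reads in untreated and ATP-treated gpa1-2. Exact 95% Clopper-Pearson intervals were computed for folds of named genes and cover counting error only. With 1 value per condition no test was run. A count model on the recovered reads would have had no replicates.

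The text names GPA1, the 15 largest rises and falls among well-covered genes, the 10 most abundant raised and lowered genes, selected members of the 57 gene lists (a list may be given by its counts alone), and the 5 largest rises and falls under 100 counts. Members and lists were chosen with earlier results of these data known. Gene names came from the file and from RefSeq, which held no entry for 747 of the 33544 identifiers. Intervals came from scipy 1.17.1 and figures from matplotlib 3.10.9, with tables handled in pandas 2.3.3 under Python 3.11.15, and the scripts were tested on simulated data. Other pseudocounts, filters, thresholds and scalings were tried.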

Additional observations from a re-analysis of the deposited data

Results flagged for a closer look

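In all 11 named genes and 1 list had a response past the threshold (for the list, a median of 0.5 or more in size) in gpa1-2 and one of the opposite sign in WS. The difference was not tested for any of them. MAPR2 had 3.22 in gpa1-2 and -3.20 in WS, and AT3G59710 2.42 and -0.20. ATH7, the ABC transporter, had -2.18 and 0.74. CYP705A28 had 1.03 and -0.15, and the marneral synthase MRN1 1.11 and -0.26.

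Other P450 genes ran opposite ways. CYP78A8 had -1.44 in gpa1-2 and 0.22 in WS, CYP702A6 -1.095 and 0.93, and CYP735A2, which makes trans-zeatin-type cytokinins, -1.25 and 0.73. The glycine-rich gene DOT1 had -1.26 and 0.12, nicotianamine synthase NAS1 -1.33 and 0.58, and AT1G19530 of the low-oxygen list -1.18 and 0.47. The median of the 6 kept gibberellin enzymes was -0.56 in gpa1-2 and 0.05 in WS, with 2 of the 6 well covered, and under the processing alternatives it lay between -0.99 and -0.26 in gpa1-2.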

How the results depend on the processing

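The counts past the threshold depended on the settings. The 526 raised genes became 311 with a pseudocount of 5, 61 at a threshold of 2 and 2303 at 0.5. The 568 lowered genes became 235 with a pseudocount of 5, 374 with an FPKM filter of 10, 344 with a scaled count sum of 100 or more, 1028 with reads scaled to each profile's total, 54 at a threshold of 2 and 2233 at 0.5. Genes raised in both genotypes, 286, became 164, 40 and 1013 with a pseudocount of 5 and thresholds of 2 and 0.5, and genes lowered in both, 254, became 126, 18 and 1174 with the same settings and 431 with reads scaled to the total. The median of the genes followed by qPCR, 0.60, was -0.10 with an FPKM filter of 10, which leaves fewer of them. The cause of the other shifts was not tested. The median of all kept genes lay between -0.05 and 0.07 over the alternatives.

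No paired analysis was possible because the tables hold 1 value per condition, and leaving out each replicate was not run for the same reason. Depth limits thinly covered genes most.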
